A study of Danio rerio with 20 samples.

Results

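Histone lysine methylases and demethylases were examined in the skin of male zebrafish (Danio rerio) at 2 ages, with and without exercise. The genes were all rows of the count table whose symbol begins with kdm or kmt followed by a digit, or with setd, in capitals or lower case, and that had at least 10 counts in 5 or more libraries. There were 44 such genes of 32105 in the table, of which 20940 passed the same count minimum, and each of the 44 passed it in every library. They comprise 21 genes of the demethylase families and 23 of the SET-domain methylase families. Symbols came from a separate name table in which many zebrafish genes carry capitals, and 3 symbols (KDM2B, KDM5B and KMT2C) name 2 genes each, so the gene ID is printed with them.

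RNA of 20 skin samples was sequenced, 5 in each of 4 groups. The groups were 3-year-old fish exercised in a swim tunnel (a tube with flowing water), 3-year-old fish with no perturbation, 1-year-old fish exercised in the same way, and 1-year-old fish with no perturbation. Per the labels all 20 were males of the strain AB JxTu, and no allele or drug is named for any group. How long the fish swam and when they were sampled is not given in the sources used here. The labels do not say whether the 5 samples of a group came from separate fish, so p-values measure the spread between samples, which may be technical in part.

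Lysines in the tails of histones carry methyl groups that mark the state of the chromatin around a gene. Methylation of lysine 4 of histone H3 (H3K4) marks active promoters and enhancers, that of H3K36 marks transcribed gene bodies, and that of H3K9 and H3K27 marks repressed chromatin. Enzymes with a SET domain add these groups, while the flavin-dependent enzyme KDM1A and the iron-dependent JmjC enzymes remove them. In the epidermis the balance between H3K27 methylation and its removal is known, from mammals, to accompany the differentiation of keratinocytes. The roles given below are those of the mammalian proteins, and no role was tested here.

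Library totals ran from 29280697 counts in an exercised 3-year library to 52437698 in an exercised 1-year library. The keratin krt5, a marker of skin epidermis, lay between 31900 and 64244 CPM in every library, while cyt1, another keratin of the marker list, lay between 0.295 and 2.92 CPM. CPM here are TMM-scaled counts, that is, scaled between libraries with the trimmed mean of M values and set to a common library size. The TMM factors were 0.810 to 0.948 in exercised 1-year libraries, 0.976 to 1.097 in unexercised 1-year libraries, and 0.989 to 1.097 in all 3-year libraries. The column of unexercised 1-year replicate 1 is named muscle, although its label says skin. Its mean log2 of (CPM + 1) over fast muscle genes (5.34) lay inside the range of the other 4 libraries of its group (4.75 to 5.85). In bulk skin, fewer cells of one type and less RNA per cell cannot be told apart, and this holds for each result below.

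The 44 genes were detected at moderate levels, and most of them varied little between samples. Levels of different genes are compared here as CPM per kilobase of gene model, averaged over the 20 libraries. The median of the 44 genes was 5.40 CPM per kilobase, against 3.37 over all 20788 genes tested, and 34 of the 44 lay above 3.37. Their gene models were long, with a median of 5384.5 bases against 2323.5 bases over all genes tested, which gives them more counts at the same level. Their median within-group coefficient of variation was 11.3%, against 22.9% over all genes tested. Some genes varied more, among them setd1bb (97.5%), kmt5ab (40.7%), SETD9 (33.8%) and KDM6B (27.9%). The highest level per length belonged to KDM1A, the flavin-dependent H3K4 demethylase, at 32.4 CPM per kilobase. It was followed by kmt5aa, which places a single methyl group on H4K20, at 27.7, by the H3K4 demethylase KDM5B (ENSDARG00000057093) at 21.1, and by the H3K27 demethylase KDM6B at 20.6 CPM per kilobase. At the low end stood kmt5ab at 0.87, KDM2B (ENSDARG00000046010) at 1.2 and setd1bb at 1.42 CPM per kilobase.

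**Figure D1:**
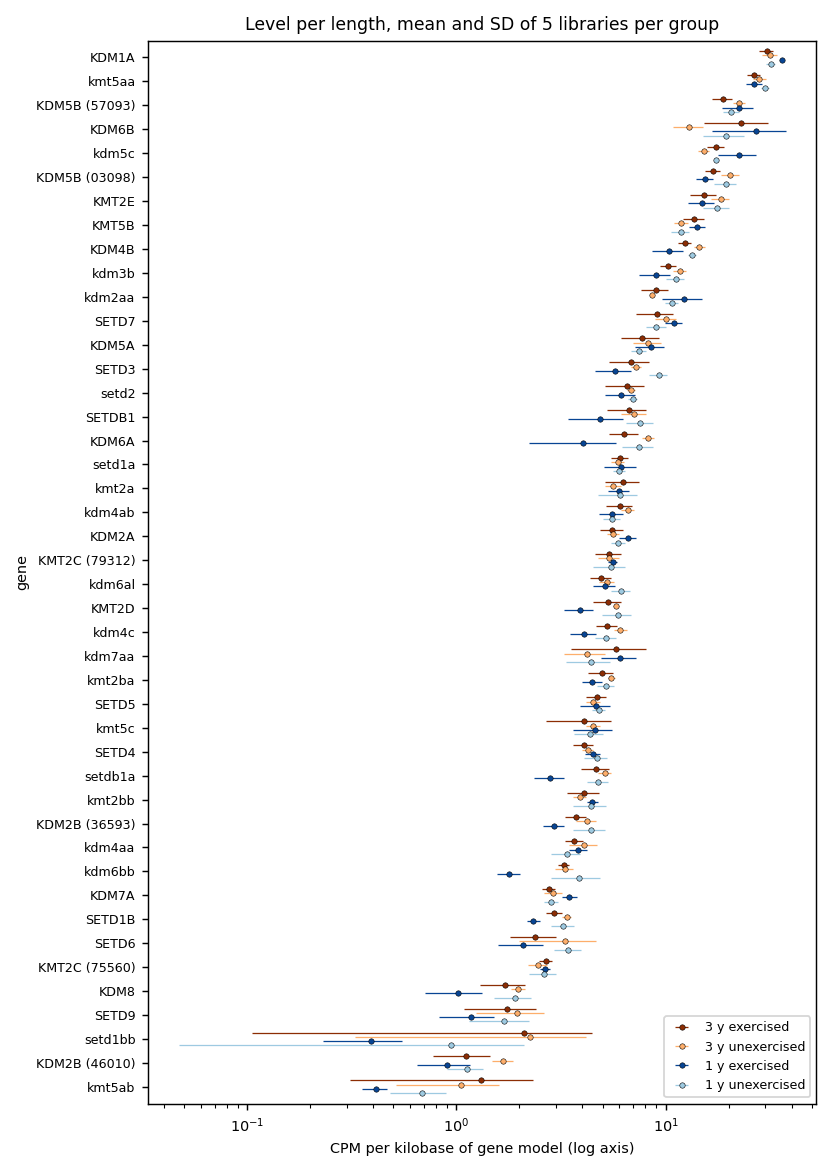
Level of each of the 44 genes in CPM per kilobase of gene model (log axis), as the mean and SD of 5 libraries in each of the 4 groups. The levels run from KDM1A (32.4 CPM per kilobase over all libraries) down to kmt5ab (0.87), bars are short for most genes and wide for setd1bb and kmt5ab, a lower bar that would reach 0 is cut short, and the digits after a shared symbol are the last 5 of the gene ID.

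The first comparison asked how the genes differed with exercise at 1 year. Of the 44 genes 14 passed edgeR's quasi-likelihood test at a Benjamini-Hochberg adjusted p below 0.05, 12 lower and 2 higher in exercised fish. This was 31.8% of the 44 genes, while 15.5% of all genes tested passed. The share lower was 27.3% against 8.15% of all genes tested, and the share higher was 4.55% against 7.37%. At an unadjusted p below 0.05 there were 22 of the 44 genes, against 29.8% of all genes tested. The median log2 fold change of the 44 genes was -0.18, against 0.01 over all genes tested. The values of the 2 groups did not overlap for 10 of the 44 genes, or 22.7%, against 12.8% of all genes tested. These were 8 lower in exercised fish (18.2%, against 7.04%) and 2 higher (4.55%, against 5.79%). Those that fell were spread over the demethylases of H3K27, H3K36, H3K4 and of H3K9 with H3K36, and over the methylases of H3K4 and H3K9, with KDM8 and SETD3 outside these classes.

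**Figure D2:**
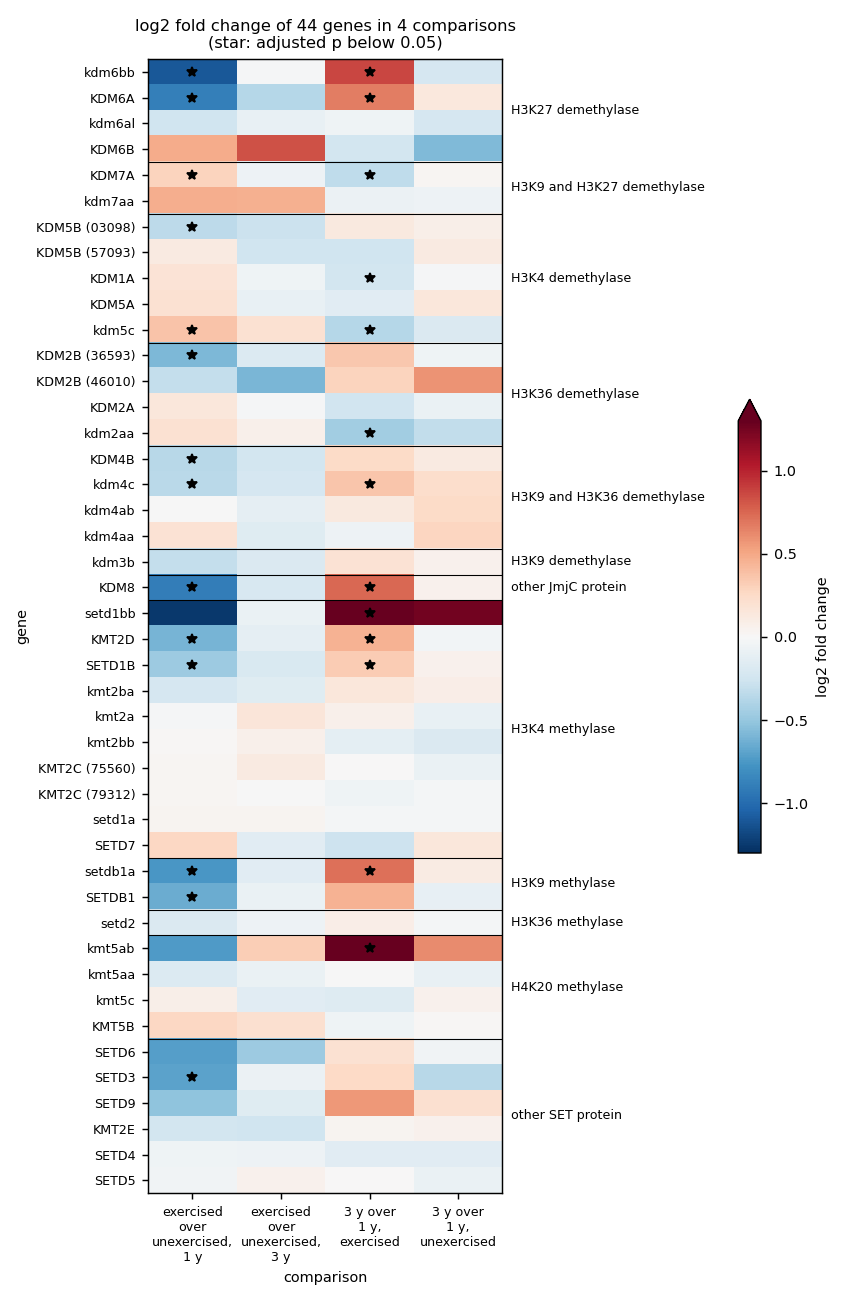
Fitted log2 fold change of the 44 genes (rows, grouped by the mark they act on) in 4 comparisons (columns), from blue (lower in the first-named group) to red (higher), with a star where the adjusted p was below 0.05. Stars stand at 14 genes for exercise at 1 year and at 13 for age with exercise, and at none in the other 2 columns. Digits after a shared symbol are the last 5 of the gene ID, and values above 1.3, those of setd1bb and kmt5ab, share the darkest red.

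Among the H3K27 demethylases, kdm6bb (ENSDARG00000056929) had the lowest adjusted p of the 44 genes. Its level was 10.6, 9.75, 9.91, 10.3 and 13.0 CPM in exercised fish, against 27.4, 30.8, 22.0, 18.3 and 16.6 CPM in unexercised fish. Every exercised library thus lay below every unexercised one. The means were 10.7 ± 1.31 CPM in exercised and 23.0 ± 5.99 CPM in unexercised fish (SD, n = 5 each). The fitted log2 fold change was -1.1 (SE 0.14, 95% interval -1.41 to -0.80, edgeR adjusted p = 0.000577).

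KDM6A, the H3K27 demethylase that belongs to the KMT2C and KMT2D complexes, also fell. It had 20.2, 13.1, 27.8, 17.3 and 39.8 CPM in exercised fish, against 50.5, 45.3, 45.4, 46.6 and 31.1 CPM in unexercised fish. The groups overlapped, because exercised replicate 5 was the highest of its group and unexercised replicate 5 the lowest of its own. The log2 fold change was -0.89 (SE 0.22, adjusted p = 0.0104). The related kdm6al had 30.4 ± 3.74 CPM in exercised and 36.3 ± 3.79 CPM in unexercised fish (SD, n = 5 each) and did not pass (log2 fold change -0.26, adjusted p = 0.107). KDM6B, the paralogue of kdm6bb, had 163, 244, 134, 283 and 114 CPM in exercised fish, against 90.4, 119, 165, 152 and 143 CPM in unexercised fish. Its groups overlapped and it did not pass (log2 fold change 0.49, SE 0.25, adjusted p = 0.195). KDM7A, which removes methyl groups from H3K9 and H3K27, rose by 0.29 on the log2 scale (SE 0.09, adjusted p = 0.0451), with overlapping groups. Its relative kdm7aa had a log2 fold change of 0.47 and did not pass.

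**Figure D3:**
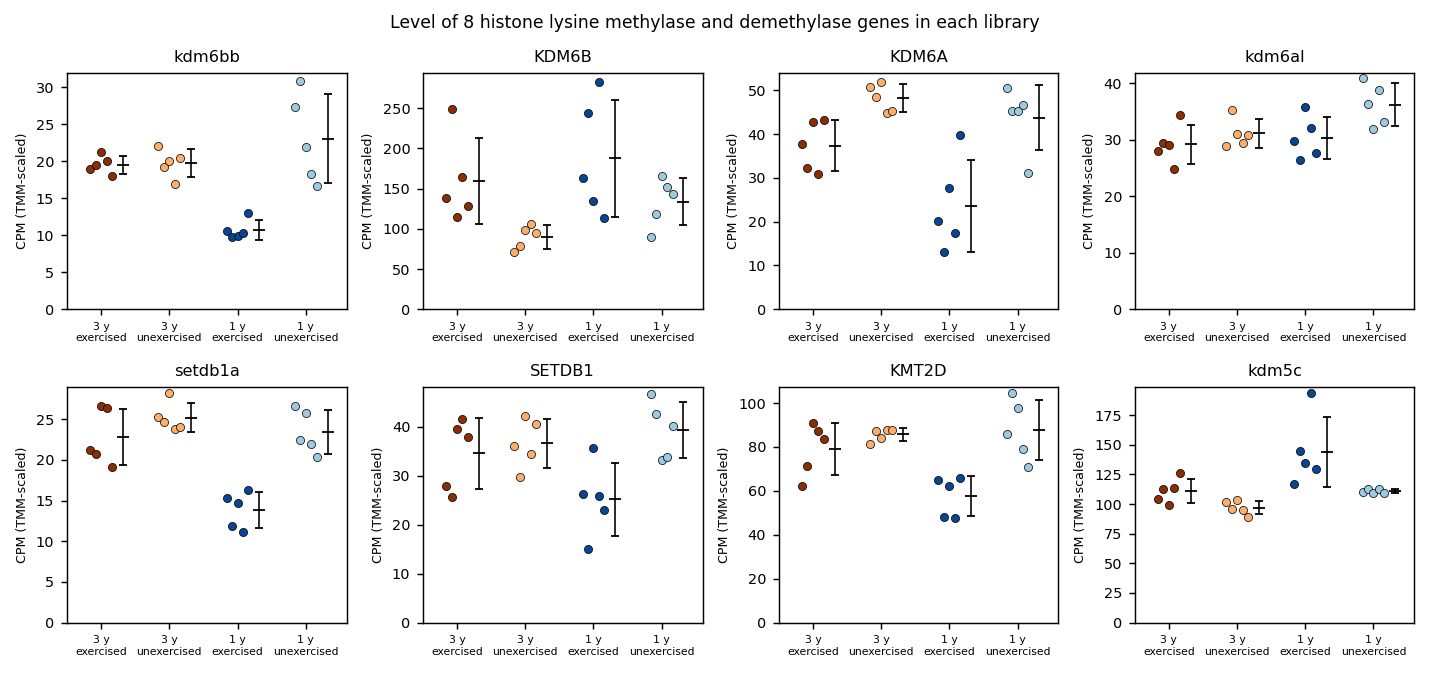
CPM of 8 genes in each library (points), with the mean and SD of the 5 libraries of a group beside them, for exercised and unexercised fish at 3 years and then at 1 year. The 5 exercised 1-year libraries stand below the unexercised 1-year libraries for kdm6bb, setdb1a and KMT2D and above them for kdm5c, and KDM6B is higher in every exercised than in every unexercised library at 3 years.

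Both genes for the H3K9 methylase SETDB1, which silences transposable elements, fell with exercise at 1 year. setdb1a had 15.4, 11.9, 14.7, 11.1 and 16.2 CPM in exercised fish, against 26.7, 22.5, 25.8, 21.9 and 20.4 CPM in unexercised fish. No value of one group reached the other, and the log2 fold change was -0.76 (SE 0.12, adjusted p = 0.00111). SETDB1 had 26.2, 15.04, 35.8, 25.9 and 23.1 CPM in exercised fish, against 46.7, 42.6, 33.2, 33.9 and 40.2 CPM in unexercised fish. Exercised replicate 3 lay above the 2 lowest unexercised libraries, and the log2 fold change was -0.64 (SE 0.19, adjusted p = 0.0258).

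Of 10 H3K4 methylase genes 2 fell and none rose by the edgeR test. KMT2D, which methylates H3K4 at enhancers, had 64.9, 48.1, 62.3, 47.8 and 65.9 CPM in exercised fish, against 85.9, 105, 98.0, 79.1 and 71.0 CPM in unexercised fish. These groups did not overlap, and the log2 fold change was -0.60 (SE 0.13, adjusted p = 0.00478). SETD1B, a methylase of promoter H3K4, averaged 19.4 ± 1.4 CPM in exercised and 26.9 ± 3.47 CPM in unexercised fish (SD, n = 5 each, log2 fold change -0.47, adjusted p = 0.00322). Both KMT2C genes, kmt2a, kmt2bb and setd1a had log2 fold changes between -0.01 and 0.04, while setd1bb was at -1.26 with an SE of 0.81. None of these 6 passed, and SETD7 and kmt2ba did not pass either.

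H3K4 demethylases moved in both directions. kdm5c had 117, 145, 135, 194 and 129 CPM in exercised fish, against 110.4, 113, 109, 112 and 109 CPM in unexercised fish. All exercised libraries lay above the narrow unexercised range, and the log2 fold change was 0.38 (SE 0.11, adjusted p = 0.0258). KDM5B (ENSDARG00000003098) fell by 0.34 on the log2 scale (adjusted p = 0.0309), with 87.4 ± 8.07 CPM in exercised and 110.4 ± 13.4 CPM in unexercised fish (SD, n = 5 each). The other KDM5B (ENSDARG00000057093) had a log2 fold change of 0.12 and did not pass (adjusted p = 0.513). KDM1A did not pass (log2 fold change 0.17, adjusted p = 0.136), although its 5 exercised libraries (145 to 155 CPM) lay above the 5 unexercised ones (121 to 139 CPM). KDM5A did not pass.

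The H3K36 demethylase and the 2 demethylases of both H3K9 and H3K36 that passed were lower in exercised fish. KDM2B (ENSDARG00000036593), a CpG-binding H3K36 demethylase that recruits Polycomb proteins, had 11.1, 8.46, 11.1, 10.1 and 9.44 CPM in exercised fish, against 18.9, 14.3, 15.99, 14.2 and 11.6 CPM in unexercised fish (log2 fold change -0.58, SE 0.13, adjusted p = 0.00603). KDM4B fell by 0.36 on the log2 scale (adjusted p = 0.0204) without overlap of the groups, and kdm4c by 0.35 (adjusted p = 0.0422) with overlap. Both remove trimethylation from H3K9 and H3K36. The other KDM2B (ENSDARG00000046010), KDM2A, kdm2aa, kdm4aa, kdm4ab and kdm3b did not pass, with log2 fold changes between -0.31 and 0.19.

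Proteins of these families with substrates other than histones, or with none known, included 2 that fell. SETD3, an actin histidine methylase, had 20.3, 16.3, 26.4, 20.7 and 25.6 CPM in exercised fish, against 40.9, 35.5, 31.2, 33.5 and 36.1 CPM in unexercised fish. The groups did not overlap (log2 fold change -0.70, SE 0.14, adjusted p = 0.00398). KDM8, a JmjC hydroxylase, averaged 1.77 ± 0.53 CPM in exercised and 3.30 ± 0.67 CPM in unexercised fish (SD, n = 5 each, log2 fold change -0.90, SE 0.22, adjusted p = 0.0107). SETD6, a methylase of non-histone proteins, had 3.68 ± 0.89 CPM in exercised and 6.04 ± 0.88 CPM in unexercised fish without overlap. Its log2 fold change of -0.71 did not pass by edgeR (adjusted p = 0.0553), although DESeq2 and limma voom called it. KMT2E, SETD4, SETD5 and SETD9 did not pass, nor did the 4 H4K20 methylases or the H3K36 methylase setd2.

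The 12 genes that fell were followed across single libraries, which was not done for all genes tested. Exercised replicate 2 was the lowest of the 5 exercised libraries for 9 of the 12 genes and replicate 4 for the other 3. The TMM factors of these 2 libraries were 0.865 and 0.810. Exercised replicate 3, with a factor of 0.872, was the lowest for 0 of the 12. The highest exercised library was replicate 5 for 6 of the genes, replicate 3 for 5 and replicate 4 for 1. Among unexercised fish replicate 5 was the lowest for 9 of the 12. Without exercised replicate 2 the count called was 8, and without unexercised replicate 1, whose column is named muscle, it was 9. Calls over all genes fell as well, to 1909 and 2109 in that order, from 3227 in the main fit. The genes kdm6bb, setdb1a, SETD1B, SETD3, KMT2D, KDM2B (ENSDARG00000036593), KDM6A and KDM8 kept the call in each of the 20 fits that left out 1 library. The other 6 lost it in at least 1. KDM7A was called in only 7 of the 20 fits and kdm4c in 11. KDM5B (ENSDARG00000003098) was called in 14, kdm5c in 15, and SETDB1 and KDM4B in 17 each. Without unexercised replicate 1 the call was lost for SETDB1, kdm5c, KDM5B (ENSDARG00000003098), kdm4c and KDM7A. With the compared groups alone 10 genes were called, all lower. Of these 9 were among the 14 called in the main fit, and the other was SETD6. The call was lost by kdm5c and KDM7A, the genes that rose. It was also lost by KDM4B, KDM5B (ENSDARG00000003098) and kdm4c, which fell. The fit of the compared groups alone called 3508 of all genes.

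Markers of other cell types moved with this comparison. The score of 21 hepatocyte genes, the mean of their log2 of (CPM + 1), lay between 3.30 and 6.96 in exercised and between 2.59 and 3.37 in unexercised 1-year libraries. Of the 21 genes 20 rose. Their summed level was 364 to 5790 CPM in exercised and 179 to 396 CPM in unexercised libraries, with no gene at 0 in either group. With this score as a covariate 7 of the 14 genes kept the call (kdm6bb, setdb1a, KMT2D, SETD3, KDM2B ENSDARG00000036593, KDM8 and kdm5c). Without the 3 exercised 1-year libraries of highest score, replicates 1, 2 and 3, a setting chosen after seeing the data, 4 kept it (kdm6bb, setdb1a, KMT2D and kdm5c). Of all genes 1931 were called with the covariate and 1270 without these 3 libraries, against 3227 in the main fit. Without these 3 libraries kdm6bb stood at -0.98 on the log2 scale (edgeR adjusted p = 0.0146).

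The score of 14 genes of replicating cells lay between 3.70 and 4.21 in exercised and between 4.73 and 5.02 in unexercised 1-year libraries. Of 13 such genes tested 5 fell, and their summed level was 283 to 392 CPM in exercised and 532 to 722 CPM in unexercised libraries. The score of 6 keratinocyte genes was 9.52 to 9.82 in exercised and 9.13 to 9.37 in unexercised libraries, with 1 of 6 genes higher by the test and summed levels of 52107 to 72371 CPM and 46858 to 58182 CPM in these 2 groups. Of 26 circadian clock genes 9 fell and 2 rose, with scores of 4.72 to 5.07 in exercised and 4.95 to 5.65 in unexercised libraries. Of 23 fast muscle genes tested none passed by edgeR, and their scores overlapped, at 5.19 to 6.4 in exercised and 4.75 to 5.85 in unexercised libraries. No gene of these 4 lists was at 0 in every library of a group, and their part in the result was not tested beyond a muscle covariate, under which 13 of the 14 genes kept the call. In that fit 3015 of all genes were called, against 3227 in the main fit. With 6 surrogate variables, estimated from the counts, none of the 44 genes was called, where kdm6bb had an adjusted p of 0.0508 and 154 of all genes tested passed.

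The balance between genes higher and lower moved with the scaling. With library totals in place of TMM scaling, an alternative added after the data were seen, all genes had a median log2 fold change of -0.21 and the 44 genes one of -0.40. In that fit 19 of the 44 genes were called, all 19 lower, and 12 of them were the 12 that fell under TMM scaling, while kdm5c and KDM7A were not called. Of all genes tested 4466 passed with library totals, 17.9% of them higher, and 3227 with TMM scaling, 47.5% of them higher.

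The same question at 3 years gave no call. None of the 44 genes passed the edgeR test, while 1.32% of all genes tested did. At an unadjusted p below 0.05 there were 6 of the 44, or 13.6%, against 19.4% of all genes tested. DESeq2 called 1 of the 44 (KDM6B) and 1257 of all genes, and limma voom 0 of the 44 and 39 of all genes. The groups did not overlap for 2 genes, or 4.55%, against 4.32% of all genes tested. The lowest p belonged to KDM6B, which had 138, 249, 115, 164 and 128 CPM in exercised fish, against 71.2, 78.3, 98.4, 106 and 95.1 CPM in unexercised fish. Every exercised library was higher than every unexercised one, with a log2 fold change of 0.82 (SE 0.25, 95% interval 0.30 to 1.35, adjusted p = 0.0887 by edgeR and 0.0329 by DESeq2). KDM2B (ENSDARG00000046010) averaged 5.89 ± 1.79 CPM in exercised and 8.90 ± 0.99 CPM in unexercised fish (SD, n = 5 each, log2 fold change -0.60, adjusted p = 0.125), and KDM5B (ENSDARG00000003098) had a log2 fold change of -0.28 (adjusted p = 0.145). Beside these values 7 of 26 clock genes fell at 3 years, with scores of 4.14 to 4.73 in exercised and 4.81 to 5.03 in unexercised libraries, and 1 of 23 fast muscle genes rose. Their part in the result was not tested beyond a muscle covariate, under which 0 of the 44 and 28 of all genes were called.

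At 3 years kdm6bb had 18.9, 19.5, 21.2, 20.0 and 18.0 CPM in exercised fish, against 22.0, 19.2, 20.0, 16.8 and 20.4 CPM in unexercised fish. The groups overlapped throughout, and the log2 fold change was -0.01 with a 95% interval of -0.32 to 0.29. KDM6A was lower in every exercised than in every unexercised library, at 37.4 ± 5.79 CPM in exercised and 48.3 ± 3.13 CPM in unexercised fish (SD, n = 5 each), and did not pass (log2 fold change -0.37, adjusted p = 0.361). setdb1a, KMT2D and SETD3 had log2 fold changes of -0.14, -0.12 and -0.08. The median over the 44 genes was -0.09, against 0.01 over all genes tested, and 33 of the 44 were below 0. Of the 44 genes 32 had the same sign at both ages, or 72.7%, against 64.9% of all genes tested. Of the 14 called at 1 year 13 had the same sign at 3 years, against 81.2% of all genes called at 1 year, and the exception was KDM7A. Across the 44 genes Spearman's rho between the log2 fold changes at the 2 ages was 0.46, and across all genes tested it was 0.38. The exercise comparisons at the 2 ages have no library in common, but genes are not independent replicates.

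**Figure D4:**
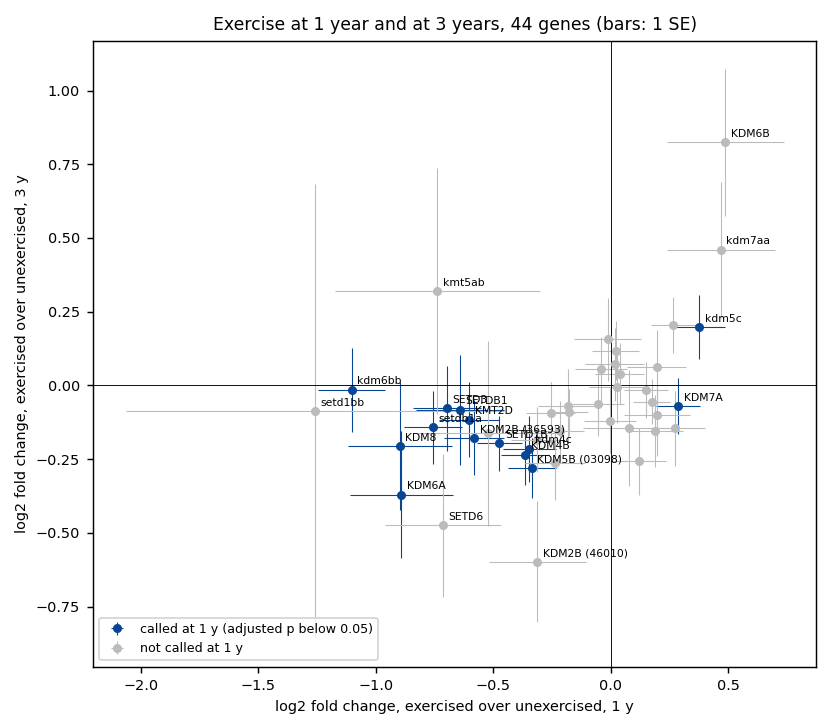
Log2 fold change of exercised over unexercised fish at 1 year (horizontal axis) and at 3 years (vertical axis) for the 44 genes, with bars of 1 SE and the 14 genes called at 1 year in blue. kdm6bb lies at -1.1 at 1 year and at -0.01 at 3 years, and KDM6B has the highest value at 3 years (0.82). Digits after a shared symbol are the last 5 of the gene ID.

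The difference of the exercise effect between the ages was tested as an interaction. None of the 44 genes passed by edgeR, and 1 of all genes tested did (0.00481%). At an unadjusted p below 0.05 there were 11 of the 44, or 25.0%, against 13.4% of all genes tested. DESeq2 called kdm6bb and setdb1a, and 500 of all genes. By limma voom none of the 44 and 2 of all genes were called. kdm6bb had the lowest p of the 44, with a difference of 1.09 on the log2 scale (SE 0.20, 95% interval 0.66 to 1.52, unadjusted p = 3.26e-05, adjusted p = 0.101). Its adjusted p was 0.000418 with DESeq2, and up to 0.276 in the other settings. It passed in 3 of the 20 fits that left out 1 library, each without replicate 5 of a group, namely unexercised 1-year (0.0464), exercised 1-year (0.043) and exercised 3-year fish (0.0422). setdb1a (0.62, adjusted p = 0.139) and SETD3 (0.62, adjusted p = 0.185) followed. An exercise effect that differed between the ages was thus not called for any of the 44 genes by the main test.

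Age was compared first in fish without exercise, 3 years over 1 year. None of the 44 genes passed by edgeR, DESeq2 or limma voom, while 0.967% of all genes tested passed by edgeR. Of all genes DESeq2 called 842 and limma voom 933. At an unadjusted p below 0.05 there were 6 of the 44, or 13.6%, against 17.2% of all genes tested. The groups did not overlap for 4 genes, or 9.09%, against 5.08% of all genes tested. These were KDM2B (ENSDARG00000046010), higher at 3 years, and kdm2aa, SETD3 and kdm5c, lower at 3 years. KDM2B (ENSDARG00000046010) had 10.5, 8.50, 7.90, 8.58 and 8.98 CPM at 3 years, against 4.44, 5.28, 7.40, 6.62 and 6.02 CPM at 1 year (log2 fold change 0.58, SE 0.21, adjusted p = 0.165). kdm2aa, an H3K36 demethylase, averaged 43.0 ± 0.94 CPM at 3 years and 53.6 ± 3.84 CPM at 1 year (SD, n = 5 each, log2 fold change -0.32, adjusted p = 0.21). SETD3 had a log2 fold change of -0.36 (adjusted p = 0.212), and kdm6bb one of -0.22 with a 95% interval of -0.52 to 0.08. The median over the 44 genes was 0.00, against 0.02 over all genes tested.

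In exercised fish 13 of the 44 genes passed between 3 years and 1 year, 9 higher and 4 lower at 3 years. This was 29.5%, against 17.2% of all genes tested. The share higher was 20.5%, against 9.73% of all genes tested, and the share lower 9.09%, against 7.43%. The groups did not overlap for 6 genes, or 13.6%, against 9.13% of all genes tested. This comparison uses the same exercised 1-year libraries as the exercise comparison at 1 year, and 9 genes were called in both. kdm6bb was higher by 0.87 on the log2 scale at 3 years (SE 0.14, adjusted p = 0.00159) and setdb1a by 0.72 (SE 0.12, adjusted p = 0.00184), both without overlap of the groups. KMT2D was higher by 0.45, SETD1B by 0.33, KDM8 by 0.75, kdm4c by 0.36 and KDM6A by 0.66. Lower at 3 years were kdm5c (-0.37), KDM7A (-0.33), kdm2aa (-0.45) and KDM1A (-0.24). KDM1A had 119, 136, 121, 137 and 118 CPM at 3 years, against 148, 145, 149, 155 and 147 CPM at 1 year, with no overlap (adjusted p = 0.0379).

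The count for age in exercised fish depended on single libraries. It was 3 without exercised 1-year replicate 2, 4 without exercised 1-year replicate 4, 5 without exercised 3-year replicate 3 and 6 without exercised 3-year replicate 1. Calls over all genes fell as well, to 2174, 2259, 2553 and 2723 in that order, from 3566 in the main fit. kdm6bb and setdb1a alone kept the call in all 20 such fits. With the compared groups alone 2 genes passed (kdm6bb and setdb1a), with the hepatocyte covariate 7, and without the 3 exercised 1-year libraries of highest hepatocyte score 2 (kdm5c and setdb1a). Of all genes 1673, 1923 and 529 passed in these fits, in that order. In that last fit kdm6bb stood at 0.74 (adjusted p = 0.068), with 2 exercised 1-year libraries left. With library totals 17 genes were called, all 17 higher at 3 years, where the median over all genes was 0.25. In that fit 5169 of all genes were called, 85.3% of them higher. The hepatocyte score was 2.48 to 4.42 in exercised fish at 3 years and 3.30 to 6.96 at 1 year, and 16 of its 21 genes fell. Of 13 genes of replicating cells 9 rose, with scores of 3.65 to 5.32 at 3 years and 3.70 to 4.21 at 1 year. Of 6 keratinocyte genes 2 fell, with scores of 9.07 to 9.61 at 3 years and 9.52 to 9.82 at 1 year, and 1 of 23 fast muscle genes rose. Of 26 clock genes 14 fell and 8 rose, with scores of 4.14 to 4.73 at 3 years and 4.72 to 5.07 at 1 year. The part of the keratinocyte, replicating cell and clock genes in the result was not tested.

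A pair of genes at low levels differed widely between libraries of the same group. setd1bb, a second H3K4 methylase gene of the SETD1B type, had 4.87, 25.4, 2.77, 0.955 and 11.3 CPM in exercised and 5.35, 5.80, 3.76, 9.29 and 23.8 CPM in unexercised 3-year fish. At 1 year it had 1.8, 1.14, 2.82, 1.25 and 1.35 CPM in exercised and 1.81, 0.896, 12.8, 3.62 and 1.02 CPM in unexercised fish. The highest library was 26.6 times the lowest among exercised 3-year fish and 14.3 times among unexercised 1-year fish. Its rise with age in exercised fish (log2 fold change 2.42, SE 0.83, adjusted p = 0.0498) was called in 6 of the 20 fits that left out 1 library, and without exercised 3-year replicate 2 it stood at 1.56 (adjusted p = 0.169). kmt5ab, the paralogue of the H4K20 methylase kmt5aa with the lower level, had 2.32, 1.44, 2.48, 5.68 and 0.64 CPM in exercised fish at 3 years, against 0.94, 0.769, 0.634, 0.792 and 0.784 CPM at 1 year. These groups overlapped through the lowest 3-year library, and the log2 fold change of 1.68 (SE 0.44, adjusted p = 0.0153) was lost without exercised 3-year replicate 4 (adjusted p = 0.0549).

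Many of these genes have a near copy from the genome duplication of teleost fish, and 12 pairs within the set were followed as the log2 ratio of their counts in each library, which needs no scaling between libraries. The counting of reads shared by such copies is not given in the sources used here, so their split is uncertain. With exercise at 1 year the ratio did not overlap between groups for 2 of the 12 pairs. No share over other gene pairs was computed, so these counts of pairs are a description only. The ratio of kdm6bb to KDM6B was -3.94, -4.64, -3.76, -4.78 and -3.13 in exercised fish, against -1.72, -1.95, -2.91, -3.05 and -3.11 in unexercised fish. All exercised values lay below the unexercised ones, and the mean differed by -1.50. The ratio of KDM5B (ENSDARG00000003098) to KDM5B (ENSDARG00000057093) averaged -0.47 ± 0.17 in exercised and -0.03 ± 0.09 in unexercised fish (SD, n = 5 each). Those of KDM6A to kdm6al and setdb1a to SETDB1 overlapped between the groups.

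At 3 years no pair separated exercised from unexercised fish. The ratio of kdm6bb to KDM6B averaged -2.97 ± 0.45 in exercised and -2.18 ± 0.35 in unexercised 3-year fish (SD, n = 5 each), with overlap. With age in unexercised fish 2 pairs did not overlap. The ratio of KDM2B (ENSDARG00000036593) to KDM2B (ENSDARG00000046010) averaged 0.70 ± 0.15 at 3 years and 1.34 ± 0.45 at 1 year, and that of KDM2A to kdm2aa -0.12 ± 0.09 at 3 years and -0.35 ± 0.05 at 1 year. With age in exercised fish no pair was without overlap.

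**Figure D5:**
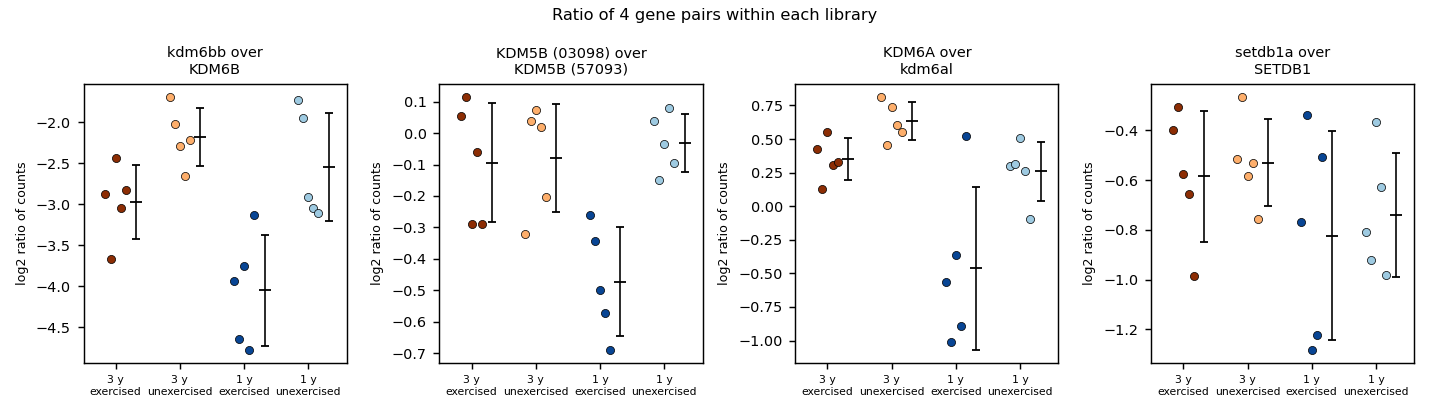
Log2 ratio of the counts of 4 gene pairs within each library (points), with the mean and SD of the 5 libraries of a group beside them, for exercised and unexercised fish at 3 years and then at 1 year. At 1 year the ratio of kdm6bb to KDM6B and that of the 2 KDM5B genes lie lower in all 5 exercised than in all 5 unexercised libraries, while the ratios of KDM6A to kdm6al and setdb1a to SETDB1 overlap, and digits after a shared symbol are the last 5 of the gene ID.

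Other genes of histone lysine methylation, from a list of methylases, JmjC proteins and partner subunits outside the naming rule, were followed beside them. Of 48 such genes tested 17 fell and 4 rose with exercise at 1 year, while 8.15% of all genes tested fell and 7.37% rose. The H3K9 methylases showed the same direction as setdb1a. ehmt1a averaged 16.7 ± 5.10 CPM in exercised and 33.9 ± 2.90 CPM in unexercised fish (SD, n = 5 each, log2 fold change -1.02, adjusted p = 0.00131), EHMT1 fell by 0.84 on the log2 scale (adjusted p = 0.00143) and EHMT2 by 1.22 (adjusted p = 0.00147), while SUV39H1 (ENSDARG00000055753) did not pass. Of 13 cofactors of the H3K4 methylase complexes, known as COMPASS, 6 fell and none rose by edgeR. Of those, the scaffold gene MEN1 fell by 0.75 (adjusted p = 0.00294), hcfc1b by 0.66 (adjusted p = 0.00211), ncoa6, a subunit of the KMT2C and KMT2D complexes, by 0.57 (adjusted p = 0.00294) and the core subunit ASH2L by 0.42 (adjusted p = 0.0107), and these 4 were picked after their values were seen. The core subunit WDR5, likewise picked afterwards, did not pass (log2 fold change 0.05). In exercised fish all 4 H3K9 methylases tested from this list were called higher at 3 years than at 1 year. Their log2 fold changes were 0.64 to 0.72, and 9.73% of all genes tested were called higher. Of the H3K9 methylases inside the naming rule setdb1a was called higher and SETDB1 was not called (log2 fold change 0.46). This age comparison uses the same exercised 1-year libraries as the exercise comparison at 1 year. At 3 years exercise changed 2 of the 48 genes, against 1.32% of all genes tested. Age without exercise changed 0 by edgeR, against 0.967% of all genes tested.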

How the data were processed

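The authors deposited gene counts as whole numbers with a column for each library, and their differing column totals show no normalization. Alignment with STAR 2.4.1d and counting with featureCounts 1.4.6-p4, after bcl2fastq 1.8.4, are read from the tool names in the submitters' processing notes, with the build GRCz10, while the annotation is not given in the sources used here. The TruSeq RNA v2 kit, which the labels' protocols give, keeps no strand, so a gene and its antisense or overlapping neighbour may share reads. RPKM values deposited by the authors served only to recover gene lengths: dividing by each library's own total left the implied lengths with a median coefficient of variation of 22.6% across libraries, and cycling the totals along the genes left 0.00464% (12981 genes), so the deposited RPKM are not scaled to each library's depth.

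One edgeR 4.0.16 model (R 4.3.3) of the 4 group means held all 20 libraries, with TMM scaling, filterByExpr (20788 genes left, all 44 members among them) and robust quasi-likelihood tests on 16 residual degrees of freedom. A gene was called at a Benjamini-Hochberg adjusted p, over all genes tested, below 0.05. The biological coefficient of variation was 34.7%. Levels are TMM-scaled CPM as mean ± SD, and SEs follow from the F statistic. Alternatives were RLE scaling, library totals, no and a stricter filter, DESeq2 1.42.0, limma 3.58.1 voom, the compared groups alone, muscle and hepatocyte scores as covariates, surrogate variables (sva 3.50.0) and fits without 1 library. The tests were tried on simulated counts, in which some of all genes tested were changed 2- or 4-fold. There edgeR found 46.0% to 58.8% of the 2-fold changes in the 4 comparisons of 2 groups. For the interaction it found 16.1%, so a gene that was not called may still have changed. The changed genes were drawn from all genes tested and were fewer than those called at 1 year. The shares found are thus not those of the 44 genes, which varied less within groups.

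Named were, per comparison, the called genes (up to 15 of lowest p), or the 3 of lowest p where fewer than 3 were called, with kdm6bb always, and up to 4 called genes of the related list. The other genes are named to account for the whole set. The members and lists were chosen with earlier results of these data known. Of 32105 genes 26269 had a symbol.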

Additional observations from a re-analysis of the deposited data

Results flagged for a closer look

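In 20 genes named above, the 5 libraries of each group were searched for a highest or lowest value that stands far from the others, over 80 combinations of gene and group. Of the 80 combinations 7 held such a value. Chance gives about 1 in 20 combinations, so this count is not far from chance. KDM2B (ENSDARG00000046010) had 8.95 CPM in exercised 3-year replicate 1, against 4.38 to 5.67 CPM in the other 4. kdm6bb had 13.0 CPM in exercised 1-year replicate 5, against 9.75 to 10.6 CPM in the others, still below every unexercised 1-year library. KDM6A had 31.1 CPM in unexercised 1-year replicate 5, against 45.3 to 50.5 CPM in the others of its group. KDM1A had 150.1 CPM in unexercised 3-year replicate 3, against 122 to 129 CPM. setd1bb had 23.8 CPM in unexercised 3-year replicate 5, against 3.76 to 9.29 CPM, and 12.8 CPM in unexercised 1-year replicate 3, against 0.896 to 3.62 CPM. kmt5ab had 3.81 CPM in unexercised 3-year replicate 3, against 1.13 to 1.77 CPM. What set these values apart was not tested.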

How the results depend on the processing

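For exercise at 1 year (14 called) the count was 7 with the hepatocyte covariate, 0 with surrogate variables, 4 without the 3 exercised 1-year libraries of highest hepatocyte score and 8 to 16 when 1 library was left out. Over all genes (3227 called) it was 1931, 154 and 1270 in the first 3 of these settings, and 1909 to 3534 without 1 library. For age with exercise (13 called) the count was 6 with limma voom, 2 with the compared groups alone, 7 with the hepatocyte covariate, 0 with surrogate variables, 2 without those same 3 libraries and 3 to 13 when 1 library was left out. Over all genes (3566 called) it was 2554, 1673, 1923, 82 and 529 in these settings, in that order, and 2174 to 4148 without 1 library. For exercise at 3 years (0 called) DESeq2 and surrogate variables called 1 each, KDM6B and KDM2B (ENSDARG00000046010), for the difference between ages (0 called) DESeq2 called 2 and fits without 1 library 0 to 1, and age without exercise gave 0 in every setting. Over all genes DESeq2 called 1257 and surrogate variables 737 for exercise at 3 years, and DESeq2 called 500 for the difference between ages. For age without exercise 43 to 933 of all genes were called over the settings. The causes were not tested. The log2 fold change of kdm6bb with exercise at 3 years (-0.01) changed sign to 0.048 with the muscle covariate and to 0.055 with surrogate variables, and ran from -0.066 to 0.029 when 1 library was left out (above 0 without unexercised 3-year replicate 1 or exercised 3-year replicate 5). Over the genes named per comparison, 968 of the values kept their direction and side of the threshold, 196 lost the call, 7 gained it and 4 reversed. Depth limits kmt5ab, KDM8 and SETD9 most, at a few CPM. No paired analysis was possible because the labels carry no replicate numbers and the numbers used here follow accession order.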

Other observations

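Polycomb repressive complex 2 places methyl groups on H3K27, which the KDM6 enzymes remove. Of 11 of its subunit and partner genes tested, 2 rose and 3 fell with exercise at 1 year, while 7.37% of all genes tested rose and 8.15% fell. The accessory gene JARID2 (ENSDARG00000062268) averaged 7.53 ± 2.64 CPM in exercised and 2.76 ± 0.77 CPM in unexercised 1-year fish (SD, n = 5 each). It rose by 1.45 on the log2 scale (SE 0.24, edgeR adjusted p = 0.00116). The other JARID2 (ENSDARG00000060925), at 18.6 ± 5.98 CPM in exercised and 13.7 ± 0.70 CPM in unexercised 1-year fish, did not pass (log2 fold change 0.44, adjusted p = 0.0905). AEBP2, another accessory subunit, rose by 0.73 at 1 year (adjusted p = 0.00963) and by 0.72 at 3 years (adjusted p = 0.0481). The catalytic subunit ezh1 fell by 0.78 at 1 year (adjusted p = 0.0109). PHF19 fell by 1.00 (adjusted p = 0.0196) and SUZ12 (ENSDARG00000098924) by 0.29 (adjusted p = 0.0185) at 1 year. The other SUZ12 (ENSDARG00000070256) did not pass. EZH2, the other catalytic subunit, did not pass at either age (log2 fold change -0.16 at 1 year and 0.68 at 3 years). In exercised fish ezh1 was higher at 3 years than at 1 year, by 1.00 on the log2 scale (adjusted p = 0.00377). In that comparison 3 of the 11 genes were called higher, with MTF2 and PHF19 beside ezh1. Another 3 were called lower, namely both JARID2 genes and AEBP2. Of all genes tested 9.73% were called higher and 7.43% lower.

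DOT1L, the H3K79 methylase, averaged 18.8 ± 8.79 CPM in exercised and 10.7 ± 2.15 CPM in unexercised 1-year fish, and 15.8 ± 5.73 CPM in exercised and 7.12 ± 0.40 CPM in unexercised 3-year fish (SD, n = 5 each). Its log2 fold change was 0.82 at 1 year (edgeR adjusted p = 0.0402) and 1.15 at 3 years (adjusted p = 0.039). AEBP2 and DOT1L were the 2 of 48 related genes called at both ages. PHF2, a JmjC demethylase of H3K9 outside the naming rule, fell by 1.15 with exercise at 1 year (adjusted p = 0.00193) and was higher by 1.02 in exercised fish at 3 years than at 1 year (adjusted p = 0.00502). AEBP2, ezh1, DOT1L and PHF2 at 1 year, EZH2, JARID2 (ENSDARG00000060925), MTF2, PHF19 and both SUZ12 genes were named after their values were seen. So were both JARID2 genes and AEBP2 for age in exercised fish.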
